A study of Drosophila melanogaster with 3 samples.

Results

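LC4 is a type of visual projection neuron of the Drosophila optic lobe, and the LC4 cells of 96 h after puparium formation (APF) were compared here with the LC4 cells of 72 h APF. The cells were those that the deposited annotation calls LC4: 604 cells at 72 h and 221 at 96 h, 825 of the 3408 annotated cells of these stages and of 6003 in the whole series. Nuclear-GFP neurons were sorted from dissociated pupal brains and profiled by droplet single-cell RNA sequencing, with 1 library for each stage that also held the related types LPLC1 and LPLC2. The animals for LC4 were F1 progeny of virgin females of the LC4 split-GAL4 driver line. Their fathers carried a UAS nuclear GFP reporter and a unique chromosome 3 of a wild-type inbred line from the Drosophila Genetic Reference Panel (DGRP). All LC4 animals of both stages thus carried R47H03-p65.AD over UAS-His2A-GFP and 72E01-GAL4.DBD over the DGRP chromosome. Males and females were mixed, and a cross was a pool of animals. The driver decides which cells carry GFP, and the sort therefore took only cells in which it was active. The same 4 strains were used at both stages, and each cross served as a replicate (4 crosses against 4). DGRP-399 and DGRP-535 made up the early collections, whose animals were on average 2 h older than those of the late collections, DGRP-799 and DGRP-805. At 72 h the crosses held 66, 134, 151 and 253 LC4 cells, and at 96 h they held 52, 66, 42 and 61, in the order DGRP-399, DGRP-535, DGRP-799 and DGRP-805. The same order is used for all values below. Each stage was dissociated and loaded as its own library, so stage cannot be told apart from library.

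LC4 dendrites tile the lobula and respond to looming objects, and LC4 axons converge on an optic glomerulus where they excite descending neurons, the giant fibre among them, that drive escape takeoff. In the last days of pupal life such neurons pass from synapse formation to a mature state: the ecdysone titre falls, partner choice by cell-surface recognition molecules comes to its end, and the machinery of release and excitability reaches its adult state. LC4 neurons are cholinergic, so their output depends on the enzymes and transporters that make, load and recycle acetylcholine.

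The marker genes matched the label LC4. The authors had named the clusters from known marker genes, so the match is not an independent test of the label. The transcription factor kn lay between 4.62 and 9.39 UMIs per 10,000 in the 8 LC4 sums of crosses, lov between 1.06 and 2.01 and Lim3 between 1.68 and 2.32, while the mean of the LPLC1 or LPLC2 crosses was at most 0.0325 for any of these genes at either stage. The reverse held for Lim1, Sox102F, salm and salr, which did not exceed 0.0916 in any LC4 sum and averaged 1.77 to 7.34 in LPLC1 and LPLC2. LC4 cells were less deeply covered at 96 h: the median UMI count per cell fell from 30018 ± 998 to 22244 ± 1736 (mean of cross medians ± SD, n = 4), genes per cell from 3626 ± 52.5 to 3219 ± 43.2, and the mitochondrial share rose from 2.15% ± 0.0653 to 3.08% ± 0.198. In each of these measures the 4 crosses of the stages did not overlap (exact permutation test, two-sided, p = 0.0286, the smallest that 4 against 4 allows). The summed UMIs ranged from 1958415 to 7041162 a cross at 72 h and from 949792 to 1373257 at 96 h. The libraries shared 7 barcodes, of which 2 were LC4 cells in both. Of 15 photoreceptor markers 3 were tested, and all 3 were called higher at 96 h, with log2 differences of 0.48 to 3.06. Of all genes tested, 25.3% were called higher. Transcripts of the 15 markers summed to 2.001 to 2.16 UMIs per 10,000 at 72 h and 3.25 to 3.497 at 96 h. norpA alone, called higher here (0.48 ± 0.08, adjusted p = 0.00016), lay between 1.86 and 3.15, and the rhodopsin gene ninaE (1.83 ± 0.31, adjusted p = 0.00013) between 0.0204 and 0.218 in the 8 sums. Glial markers summed to 0.428 to 0.6902 at 72 h and 0.524 to 0.5896 at 96 h, and markers of hemocytes, fat body and muscle to at most 0.179. What part such transcripts had in any result was not tested.

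To ask which transcripts LC4 neurons gained or lost over the last pupal day, the UMIs of all LC4 cells of a cross were summed and the 8 sums were compared. A gene was called when its adjusted p (edgeR's quasi-likelihood test, Benjamini-Hochberg over all genes tested) was under 0.05, and "rose" and "fell" are used only of called genes. Of 5605 genes tested, 2920 were called (52.1%), 1420 higher at 96 h (25.3%) and 1500 lower (26.8%). The 4 crosses of 1 stage lay wholly above or below those of the other for 2629 genes (46.9%). Changes of 2-fold or more were found for 357 genes that rose and 609 that fell, and changes of 8-fold or more for 37 and 55. The median log2 difference over all genes was -0.0021, and every count of calls between stages below is to be read against these background shares. Within the older crosses alone 2269 genes were called, and within the younger ones 2183. Levels are UMIs per 10,000 UMIs of a cross. Differences are log2 values, 96 h minus 72 h, with their standard error. They carry the further TMM scaling of the test, so small ones need not follow the levels.

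**Figure D1:**
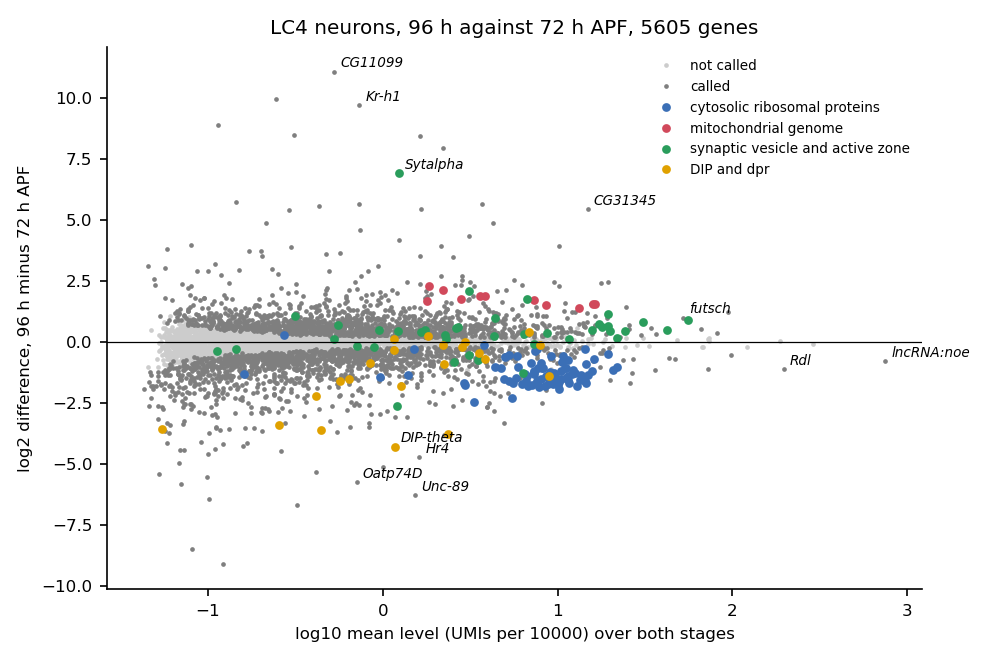
Mean level of each of the 5605 genes tested in LC4 (log10 UMIs per 10000, horizontal axis) against its log2 difference between 96 h and 72 h APF (vertical axis), with called genes in dark grey and members of 4 gene lists in colour. Ribosomal protein genes form a cloud below 0, and the 11 tested transcripts of the mitochondrial list lie above it.

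The genes that rose most went from near absence to clear expression in every cross. CG11099 (2R, 20236235 to 20239200 on dm6) had no UMI among the 604 cells of 72 h and 495 UMIs at 96 h, at least 596-fold higher when 3 UMIs are taken as the floor for the 72 h sum. Its levels at 96 h were 1.02, 0.947, 1.06 and 1.18. Kr-h1 (2L, 6082603 to 6096498), a zinc finger transcription factor and the early response gene of juvenile hormone, went from 2 UMIs to 685, a ratio of 1237 with a 95% counting interval of 341 to 10233. Its levels were 0, 0, 0.004899 and 0 at 72 h and 1.49, 1.35, 1.495 and 1.51 at 96 h, so the 96 h crosses were tightly grouped and only DGRP-799 held any UMI at 72 h. CG4678 reached 2.95, 3.53, 3.03 and 3.504 from no more than 0.0122, a log2 difference of 8.46 ± 0.18 (SE, adjusted p = 3.4e-14). CG5644 reached 4.05, 4.06, 4.31 and 5.12 from no more than 0.0255 (7.97 ± 0.22, adjusted p = 6.7e-12).

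Sytalpha (2L, 17592260 to 17604387), a member of the synaptotagmin family of vesicle-associated calcium sensors, had levels of 0.0255, 0.0153, 0.0147 and 0.0199 at 72 h and 2.34, 2.301, 2.71 and 2.49 at 96 h, with no overlap and a difference of 6.95 ± 0.16 (SE, adjusted p = 6.1e-14). Nhe2, a sodium-proton exchanger, rose in the same way, with 0.0817, 0.0688, 0.0637 and 0.0639 at 72 h and 3.65, 3, 3.11 and 3.16 at 96 h (5.48 ± 0.12, adjusted p = 3.4e-14). Drep3, a relative of the DNA fragmentation factors, had 0.133, 0.158, 0.108 and 0.134 at 72 h and 7.89, 5.45, 7.09 and 8.42 at 96 h (5.67 ± 0.16, adjusted p = 6.1e-12). For these genes, too, every cross of 96 h lay above every cross of 72 h.

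CG31345 (3R, 12811145 to 12817029) had 0.797, 1.08, 0.333 and 0.344 at 72 h and 25.97, 32.6, 25.6 and 32.2 at 96 h (5.46 ± 0.43, adjusted p = 2.8e-05). At 72 h its early, older crosses were above the late ones, whereas at 96 h the strains were not split by age. CG17777 rose from 0.176 to 0.408 at 72 h to 13.9, 6.58, 6.71 and 5.77 at 96 h (4.89 ± 0.40, adjusted p = 3.3e-05), with DGRP-399 apart from the other crosses. CG6006 rose to 0.873, 1.005, 2.68 and 1.19 from no more than 0.0357 (5.67 ± 0.59, adjusted p = 0.00013), here with DGRP-799 highest. The remaining members of the 12 largest increases were the non-coding lncRNA:CR45054 (0.0572 ± 0.0172 to 1.42 ± 0.111, mean ± SD, n = 4) and CG12822 (0.279 ± 0.0507 to 5.92 ± 0.906).

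Among the genes that fell most were the ecdysone importer, an ecdysone-induced receptor and recognition molecules. Unc-89 (2R, 23995543 to 24014254), the homologue of the giant sarcomere protein obscurin, had levels of 3.53, 3.09, 2.53 and 2.82 at 72 h and 0.00929, 0.0146, 0.147 and 0.0153 at 96 h (-6.27 ± 0.40, adjusted p = 1.3e-06). Oatp74D (3L, 17487118 to 17511693), which carries ecdysone into cells, fell from between 1.33 and 1.45 to 0.0372, 0.0364, 0.0105 and 0.0229 (-5.73 ± 0.18, adjusted p = 3.2e-12). The ecdysone-induced nuclear receptor Hr4 (X, 1941940 to 2007956) fell with it, with 2.997, 2.91, 3.19 and 3.31 at 72 h and 0.139, 0.109, 0.1895 and 0.0916 at 96 h (-4.69 ± 0.16, adjusted p = 5.6e-12). For all these genes every cross of 72 h lay at least an order of magnitude above every cross of 96 h.

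CG16758 had 1.77, 1.904, 2.33 and 1.75 at 72 h and 0.0557, 0.0218, 0.137 and 0.0458 at 96 h (-5.11 ± 0.28, adjusted p = 2.4e-08). DIP-theta, an immunoglobulin receptor of the DIP family, had 2.52, 2.03, 2.11 and 2.24 at 72 h and 0.167, 0.197, 0.0211 and 0.08398 at 96 h (-4.27 ± 0.24, adjusted p = 3.6e-08), and dpr8, of the family that DIPs bind, had 4.06, 3.68, 5.04 and 4.68 at 72 h and 0.334, 0.371, 0.442 and 0.2596 at 96 h (-3.75 ± 0.16, adjusted p = 4.8e-10). The receptor tyrosine kinase inhibitor sty (sprouty) had 4.01, 4.35, 4.03 and 4.27 at 72 h and 0.186, 0.211, 0.611 and 0.313 at 96 h (-3.80 ± 0.28, adjusted p = 3.1e-06), with the highest remnant in DGRP-799. Also among the 12 largest decreases were jeb, the secreted ligand of the kinase Alk (1.51 ± 0.379 to 0.168 ± 0.0912), the histone-binding Df31 (1.54 ± 0.367 to 0.138 ± 0.104), the calcium-binding Scp2 (8.86 ± 1.47 to 0.957 ± 0.336), bma (1.004 ± 0.326 to 0.0908 ± 0.0732) and CG4882 (1.18 ± 0.134 to 0.118 ± 0.06202). The plot of the largest changes shows each cross.

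**Figure D2:**
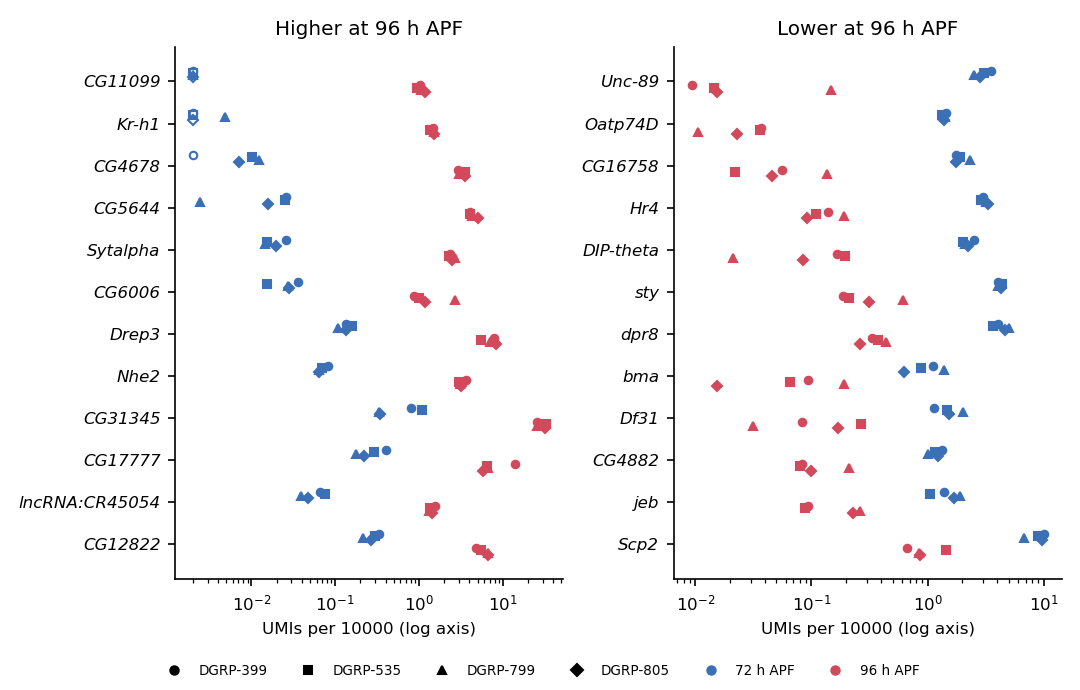
Levels of the 12 genes with the largest increase and the 12 with the largest decrease (at least 1 UMI per 10000 at the higher stage, stages not overlapping) in each cross, on log axes. Symbols give the strain, blue marks 72 h APF and red 96 h APF, and open symbols at the left edge are crosses without a UMI. The 2 colours do not overlap for any gene shown, which the rule of choice required.

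Measured in UMIs rather than in folds, the 5 largest gains among called genes were those of CG31345 and of 4 further genes. The non-coding lncRNA:CR34335 had 61.1, 55.5, 51.3 and 47.7 at 72 h and 149.8, 137, 113 and 141 at 96 h (1.24 ± 0.09, adjusted p = 1.8e-08). The microtubule-associated futsch, the fly MAP1B, had 36.3, 34.3, 31.3 and 31.2 at 72 h and 77.4, 73.9, 64.8 and 68.5 at 96 h (1.01 ± 0.08, adjusted p = 4.1e-08), and complexin (cpx), a clamp of vesicle fusion, 41.8, 36.6, 34.7 and 36.5 at 72 h and 82.5, 69.9, 74.3 and 72.6 at 96 h (0.91 ± 0.09, adjusted p = 3.5e-07). The nuclear RNA lncRNA:Hsromega gained less, 52.4 ± 5.48 to 80.6 ± 2.33 (0.53 ± 0.09, adjusted p = 0.00019). The largest losses included lncRNA:noe, a neuronal non-coding RNA, with 892, 987, 917 and 910.4 at 72 h and 504, 520.0, 712 and 558 at 96 h (-0.77 ± 0.13, adjusted p = 0.00019), and Rdl, the ionotropic GABA receptor subunit, with 260.3, 254, 270.0 and 268 at 72 h and 137, 129, 131 and 124 at 96 h (-1.10 ± 0.08, adjusted p = 1.7e-08). The subunit gene nAChRalpha7 and the channel gene para, described below, belonged to them too. His4r, the replication-independent histone H4 gene, fell from 38.98 ± 3.18 to 12.9 ± 0.999 (-1.68 ± 0.10, adjusted p = 1.7e-09).

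Hormone response genes moved in both directions. Of 28 genes of an ecdysone response list, 19 were tested, of which 4 rose and 8 fell, with a median log2 difference of -0.12 against -0.0021 over all genes. Besides the importer and Hr4, the nuclear receptor ftz-f1 fell, with 6.59, 6.35, 6.66 and 6.27 at 72 h and 1.33, 1.65, 2.2 and 1.63 at 96 h (-2.01 ± 0.14, adjusted p = 3.8e-08). The ecdysone receptor gene EcR itself fell only modestly, from 3.43 ± 0.114 to 2.68 ± 0.305 (-0.44 ± 0.10, adjusted p = 0.0022). The transcription factor br, a target of ecdysone, differed by -0.19 ± 0.10 (SE, adjusted p = 0.15) and was not called. br was called when 1 cross was left out (adjusted p = 0.015 without DGRP-399 at 96 h). Blimp-1, an ecdysone-inducible repressor, rose from 0.0839 ± 0.0236 to 1.06 ± 0.222 (3.65 ± 0.20, adjusted p = 4.0e-09).

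Eip75B, a nuclear receptor induced by ecdysone, had 4.999, 4.66, 5.82 and 5.51 at 72 h and 9.53, 10.1, 32.2 and 15.3 at 96 h, a difference of 1.62 ± 0.44 (SE, adjusted p = 0.019). The 96 h crosses spread more than 3-fold, with DGRP-799 highest, and all 4 lay above the 72 h crosses. With no filter on low counts the adjusted p was 0.056. The summed level of the whole list was 55.3 to 58.4 at 72 h and 52.3 to 70.1 at 96 h, so the stages overlapped.

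Most of the release machinery rose. Of 43 synaptic vesicle and active zone genes 40 were tested, of which 25 rose and 5 fell, with a median difference of 0.44. The summed level of the list went from between 288 and 303 to between 438 and 472 UMIs per 10,000. Syt1, the calcium sensor of fast release, had 33.3, 34.5, 33.7 and 34.9 at 72 h and 52.3, 49.9, 53.2 and 47.02 at 96 h (0.48 ± 0.08, adjusted p = 0.00016), and EndoA (endophilin), which acts in vesicle endocytosis, 1.21, 1.13, 0.977 and 1.14 at 72 h and 4.63, 4.602, 5.83 and 5.41 at 96 h (2.12 ± 0.11, adjusted p = 8.8e-10). Sap47, a synapse-associated protein, rose from 21.2 ± 1.31 to 40.4 ± 3.98 and the scaffold kinase CASK from 19.99 ± 0.939 to 28.8 ± 2.47. Syt12, another synaptotagmin, was among the 5 that fell and had 1.76, 1.99, 2.31 and 2.13 at 72 h and 0.353, 0.255, 0.442 and 0.405 at 96 h (-2.61 ± 0.15, adjusted p = 5.4e-09), as was Rbp, the active zone RIM-binding protein, with 8.39, 8.12, 9.64 and 8.998 at 72 h and 3.65, 3.84, 4.63 and 3.57 at 96 h (-1.25 ± 0.11, adjusted p = 2.6e-07). The other members that fell were RhoGAP100F and the neuroligins Nlg3 and Nlg4.

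The cholinergic genes that make, load and recycle acetylcholine rose as well. ChAT, which makes acetylcholine, rose from 1.61 ± 0.179 to 2.33 ± 0.334 (0.45 ± 0.10, adjusted p = 0.0018), the vesicular transporter VAChT from 6.53 ± 0.265 to 8.16 ± 0.432 (0.23 ± 0.08, adjusted p = 0.027) and the choline transporter ChT from 1.36 ± 0.0926 to 2.59 ± 0.618 (0.84 ± 0.16, adjusted p = 0.00096). Acetylcholinesterase (Ace), which ends the signal, fell, with 29.3, 25.8, 32.8 and 26.8 at 72 h and 19.9, 19.2, 19.7 and 15.5 at 96 h (-0.71 ± 0.11, adjusted p = 5.3e-05). In all, 6 of 16 transmitter genes were tested, of which 4 rose and 2 fell. The fourth that rose was VGAT, the vesicular GABA transporter, from 0.411 ± 0.00961 to 0.648 ± 0.0621 (0.56 ± 0.12, adjusted p = 0.00096), and the other that fell was Tbh, at 0.0937 or less in every cross. With cells thinned to 10000 UMIs the difference of VGAT was 0.31 and was not called (adjusted p = 0.14). VAChT lost its call when 1 cross was left out (adjusted p = 0.051 without DGRP-805 at 96 h).

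Sodium and calcium channel genes were mostly lower at 96 h. Of 16 sodium and calcium channel genes, all tested, 1 rose and 10 fell (median -0.51). The sodium channel para had 107, 111, 119 and 116 at 72 h and 82.1, 83.98, 90.4 and 77.6 at 96 h (-0.53 ± 0.09, adjusted p = 0.00015), and cac, the calcium channel of presynaptic terminals, 49.6, 52.7, 55.2 and 51.9 at 72 h and 35.5, 34.6, 39.6 and 30.4 at 96 h (-0.66 ± 0.10, adjusted p = 5.7e-05). The auxiliary genes Teh1 (1.63 ± 0.106 to 0.832 ± 0.0772) and Ca-beta (5.84 ± 0.348 to 3.18 ± 0.222) fell as well. The single gene that rose was na, the sodium leak channel, from 0.893 ± 0.05004 to 1.75 ± 0.0745 (0.88 ± 0.09, adjusted p = 8.1e-07).

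Among potassium channels 16 of 22 were tested, of which 4 rose and 5 fell (median -0.10). Shab, a delayed rectifier, had 25.1, 27.96, 25.4 and 27.5 at 72 h and 44.8, 47.2, 36 and 41.96 at 96 h (0.59 ± 0.08, adjusted p = 1.7e-05), and the calcium-activated channel slo 35.3, 33.7, 40.9 and 39 at 72 h and 17.3, 14.7, 17.2 and 16.2 at 96 h (-1.28 ± 0.10, adjusted p = 4.7e-08). Sh, the A-type channel, differed by -0.20 ± 0.09 (SE, adjusted p = 0.088) and its beta subunit Hk by 0.12 ± 0.08 (SE, adjusted p = 0.23), and neither was called. The hyperpolarization-activated Ih rose from 7.87 ± 0.427 to 12.97 ± 1.69 (0.64 ± 0.11, adjusted p = 0.00014). Sh was called when 1 cross was left out (adjusted p = 0.0008 without DGRP-799 at 96 h).

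Receptor genes were more often lower than higher. The GABA receptor list had 5 of 7 genes tested, of which 1 rose and 3 fell, and its summed level went from between 263 and 279 to between 133 and 148. Nearly all of that sum was Rdl at both stages, by the levels given above, so its fall is that of Rdl and not of the list. Besides Rdl, the subunit Lcch3 fell from 1.08 ± 0.0756 to 0.434 ± 0.0485 (-1.41 ± 0.11, adjusted p = 6.3e-08). The metabotropic GABA-B-R1 differed by 0.03 ± 0.08 (SE, adjusted p = 0.76) and was not called, and GABA-B-R2 rose from 0.724 ± 0.076 to 1.05 ± 0.0307 (0.46 ± 0.10, adjusted p = 0.0014).

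Subunits of the nicotinic acetylcholine receptors were split. Of 9 tested of 10, 1 rose and 4 fell. nAChRalpha7 had 89.97, 87.8, 108 and 102 at 72 h and 48.7, 48.3, 46.5 and 48.7 at 96 h (-1.11 ± 0.09, adjusted p = 5.5e-08) and nAChRalpha6 10.4, 8.01, 6.48 and 8.23 at 72 h and 1.93, 2.91, 1.59 and 1.88 at 96 h (-2.08 ± 0.17, adjusted p = 1.1e-06). nAChRalpha1 fell from 10.7 ± 1.08 to 4.22 ± 0.479 (-1.44 ± 0.10, adjusted p = 1.8e-08). By contrast nAChRbeta1 had 15.6, 15.1, 15.6 and 16.1 at 72 h and 24.7, 25.9, 21.4 and 21.3 at 96 h (0.49 ± 0.08, adjusted p = 0.0001), and nAChRalpha5, with 64.4, 69.7, 72.2 and 72.2 at 72 h and 84.1, 85, 68.1 and 72.6 at 96 h, differed by 0.06 ± 0.08 (SE, adjusted p = 0.56) and was not called.

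Of 7 glutamate receptor genes tested of 15, 1 rose and 5 fell. GluClalpha, the glutamate-gated chloride channel, had 10.5, 11.3, 11.7 and 9.23 at 72 h and 5.99, 7.11, 4.62 and 3.39 at 96 h (-1.11 ± 0.19, adjusted p = 0.00065), and the AMPA-type subunits GluRIA (1.21 ± 0.1499 to 0.3197 ± 0.104) and GluRIB (4.25 ± 0.323 to 1.86 ± 0.334) fell with it. The single gene that rose was the NMDA receptor subunit Nmdar2, with 1.76, 1.799, 1.53 and 1.55 at 72 h and 2.67, 2.59, 2.78 and 2.695 at 96 h (0.61 ± 0.09, adjusted p = 3.0e-05).

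Of 11 monoamine receptors tested of 17, 3 rose and 6 fell. DopEcR, which binds dopamine and ecdysteroids, had 23.2, 21.8, 22.9 and 23.98 at 72 h and 10.5, 10.8, 14.3 and 12.1 at 96 h (-1.03 ± 0.12, adjusted p = 3.4e-06). The octopamine receptor Octbeta1R fell from 0.206 ± 0.0644 to 0.0121 ± 0.0136 (-4.38 ± 0.52, adjusted p = 8.5e-06), whereas Oamb rose from 2.74 ± 0.272 to 4.13 ± 0.464 (0.49 ± 0.09, adjusted p = 0.00034). Neuropeptide receptors had 16 of 38 tested, of which 3 rose and 6 fell. SIFaR, the receptor of the peptide SIFamide, had 3.88, 4.03, 4.26 and 4.32 at 72 h and 1.11, 1.06, 3.18 and 2.05 at 96 h (-1.25 ± 0.36, adjusted p = 0.023), with a spread at 96 h in which DGRP-799 was highest. SIFaR lost its call when 1 cross was left out (adjusted p = 0.056 without DGRP-799 at 72 h, 0.051 without DGRP-399 at 96 h and 0.053 without DGRP-805 at 96 h). Dh31-R rose from 0.996 ± 0.138 to 1.56 ± 0.356 (0.55 ± 0.14, adjusted p = 0.004) and CCKLR-17D3 fell from 0.8005 ± 0.0463 to 0.298 ± 0.0314 (-1.53 ± 0.13, adjusted p = 8.1e-08). Of 29 neuropeptide genes 3 were tested (AstCC, Dh31 and Nplp1) and all fell, the list summing to 0.601 to 0.774 and then 0.251 to 0.389. Of the processing genes, Cadps, needed for dense-core vesicle release, rose from 12.5 ± 0.681 to 22.01 ± 1.32 (0.73 ± 0.08, adjusted p = 2.4e-06).

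**Figure D3:**
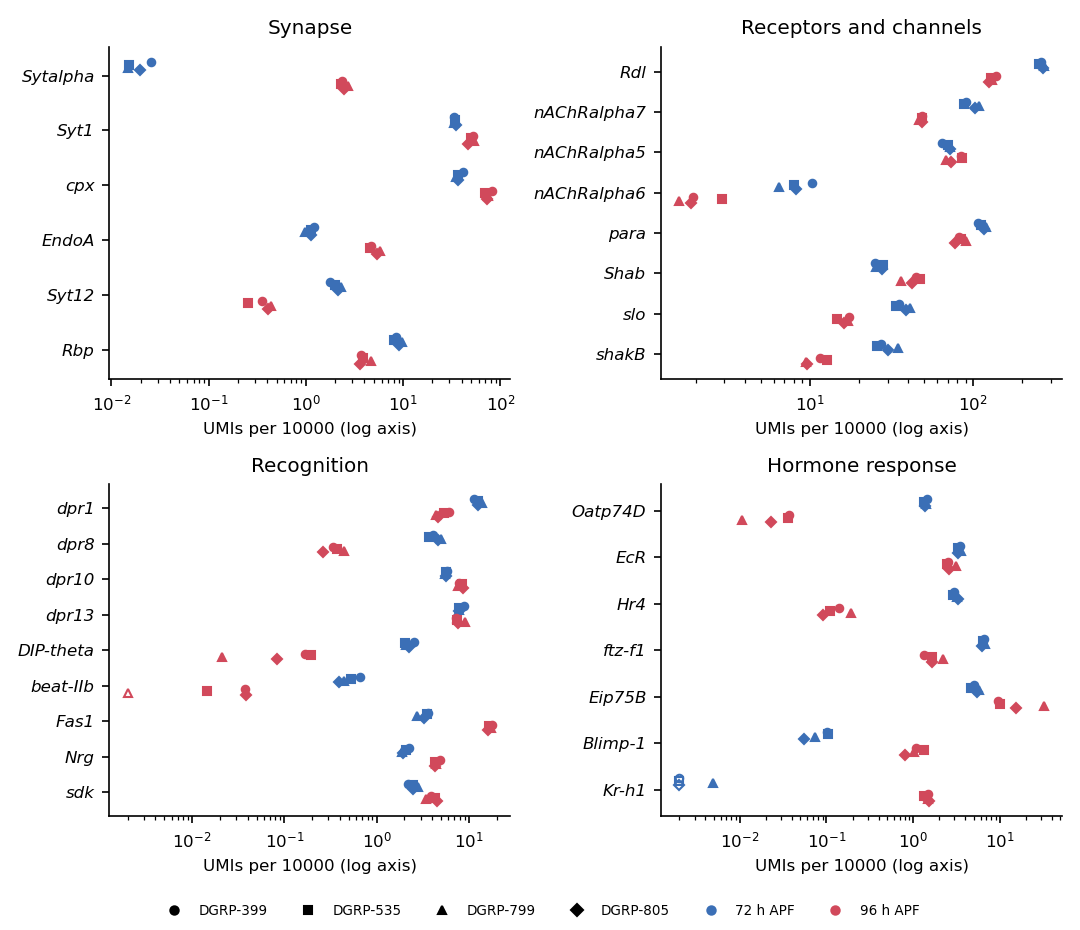
Levels in each cross (log axes) of genes of the synapse, of receptors and channels, of recognition molecules and of the hormone response. Blue marks 72 h APF, red 96 h APF, symbols give the strain, and open symbols at the left edge are crosses without a UMI. The stages overlap for nAChRalpha5 and dpr13 and are apart for the other genes drawn.

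Recognition molecules of the immunoglobulin superfamily mostly fell. DIPs and dprs are families of receptors that bind one another in partner pairs, and of 22 tested of 32, 1 rose and 15 fell, with a median of -0.86 and 10 that fell 2-fold or more. Their summed level went from between 60.96 and 65.4 to between 43.4 and 44.8. dpr1 had 11.5, 12.6, 13.8 and 12.6 at 72 h and 6.13, 5.35, 4.44 and 4.65 at 96 h (-1.39 ± 0.10, adjusted p = 1.8e-08), and dpr12 fell from 4.61 ± 0.237 to 3.05 ± 0.601 (-0.69 ± 0.11, adjusted p = 7.7e-05). dpr3 (0.836 ± 0.09698 to 0.294 ± 0.0523) and DIP-kappa (0.938 ± 0.175 to 0.351 ± 0.132) fell too. The single member that rose was dpr10, with 5.801, 5.67, 5.58 and 5.69 at 72 h and 7.75, 8.45, 7.62 and 8.696 at 96 h (0.43 ± 0.07, adjusted p = 0.00018). dpr13 had 8.78, 7.83, 7.74 and 7.78 at 72 h and 7.302, 7.47, 9.19 and 7.69 at 96 h and was not called (-0.10 ± 0.10, adjusted p = 0.42). dpr13 was called when 1 cross was left out (adjusted p = 0.011 without DGRP-799 at 96 h).

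The beat and side families, also receptor and ligand partners, had 19 of 22 tested, of which 3 rose and 10 fell (median -0.48). beat-IIIc had 31.1, 31.8, 34.7 and 32.04 at 72 h and 19.6, 24.04, 19.95 and 21.9 at 96 h (-0.69 ± 0.08, adjusted p = 4.8e-06), and side 10.7, 9.18, 13.8 and 13.3 at 72 h and 10.04, 7.49, 9.13 and 9.29 at 96 h (-0.48 ± 0.14, adjusted p = 0.013). side was not called with the spread of the 3 types pooled (adjusted p = 0.096), from means over cells (limma, 0.053) or in the older crosses alone (0.16). beat-IIb fell from 0.503 ± 0.115 to 0.0225 ± 0.0185 (-4.46 ± 0.35, adjusted p = 1.2e-07) and beat-VI from 0.334 ± 0.06799 to 0.03104 ± 0.0269 (-3.52 ± 0.35, adjusted p = 1.4e-06). side-VII (0.635 ± 0.0531 to 1.1 ± 0.302), side-VI (2.51 ± 0.281 to 3.41 ± 0.679) and beat-Va (3.396 ± 0.136 to 4.21 ± 0.268) rose. side-VI lost its call when 1 cross was left out (adjusted p = 0.053 without DGRP-805 at 72 h, 0.083 without DGRP-399 at 96 h and 0.056 without DGRP-799 at 96 h). beat-Va lost its call when 1 cross was left out (adjusted p = 0.055 without DGRP-535 at 72 h and 0.094 without DGRP-805 at 96 h).

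Among 48 other adhesion and guidance genes tested of 65, 11 rose and 25 fell. Fas1 (fasciclin 1) had 3.57, 3.54, 2.78 and 3.26 at 72 h and 17.9, 16.5, 17.6 and 16.05 at 96 h (2.29 ± 0.10, adjusted p = 7.3e-11), and the L1-type adhesion molecule Nrg (neuroglian) 2.27, 2.09, 1.88 and 1.93 at 72 h and 4.82, 4.34, 4.37 and 4.298 at 96 h (1.04 ± 0.08, adjusted p = 7.2e-08). sdk (sidekick) rose, with 2.21, 2.47, 2.78 and 2.48 at 72 h and 3.86, 4.296, 3.43 and 4.48 at 96 h (0.60 ± 0.09, adjusted p = 6.4e-05), as did klg (klingon) from 16.1 ± 1.28 to 21.8 ± 1.203 (0.35 ± 0.09, adjusted p = 0.004), the latter not called with the spread of the 3 types pooled (adjusted p = 0.18). kek5 fell from 0.389 ± 0.0337 to 0.0586 ± 0.0145 and ed (echinoid) from 0.751 ± 0.09397 to 0.115 ± 0.0788. Dscam2 (13.3 ± 0.789 to 11.5 ± 1.05) and Sema1a (9.15 ± 0.567 to 8.18 ± 0.8598) fell by less, with log2 differences of -0.30 and -0.25. Dscam2 was not called from means over cells (limma, adjusted p = 0.17). Sema1a lost its call when 1 cross was left out (adjusted p = 0.12 without DGRP-799 at 72 h, 0.091 without DGRP-805 at 72 h, 0.058 without DGRP-535 at 96 h and 0.053 without DGRP-805 at 96 h). The summed level of this list nevertheless went up, from between 122 and 132 to between 139 and 141. A sum is weighted by level: within it Fas1 alone went from between 2.78 and 3.57 to between 16.05 and 17.9, while 25 members fell. The sum was also scaled by total UMIs only, and the calls by TMM as well. What part the scaling had in their different directions was not tested. Of further genes that the study names for the LPLC types, CG17716 rose from 3.22 ± 0.205 to 6.72 ± 1.001 (0.98 ± 0.12, adjusted p = 5.7e-06), the sialyltransferase SiaT from 8.55 ± 0.4602 to 10.5 ± 0.625 (0.21 ± 0.08, adjusted p = 0.043), and CG33543 fell from 4.41 ± 0.757 to 2.38 ± 0.393 (-0.98 ± 0.14, adjusted p = 4.6e-05). The block by strain gave an adjusted p of 0.051 for SiaT. SiaT lost its call when 1 cross was left out (adjusted p = 0.055 without DGRP-799 at 72 h, 0.072 without DGRP-535 at 96 h, 0.06 without DGRP-799 at 96 h and 0.079 without DGRP-805 at 96 h). Cad87A was not called (0.35 ± 0.19, adjusted p = 0.16). Cad87A was called when 1 cross was left out (adjusted p = 0.00066 without DGRP-799 at 96 h). trn rose, at 0.379 or less in every cross (0.85 ± 0.32, adjusted p = 0.044). trn lost its call when 1 cross was left out (adjusted p = 0.055 without DGRP-399 at 72 h, 0.085 without DGRP-799 at 72 h, 0.074 without DGRP-805 at 72 h, 0.064 without DGRP-399 at 96 h, 0.18 without DGRP-535 at 96 h and 0.1 without DGRP-805 at 96 h). dpr17, at 0.123 or less, was too low to be tested. Tetraspanins had 13 of 34 tested, of which 3 rose and 7 fell, led by Tsp42En with 1.48, 1.77, 1.08 and 1.08 at 72 h and 4.64, 4.84, 5.75 and 5.75 at 96 h (1.88 ± 0.17, adjusted p = 2.6e-06).

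**Figure D4:**
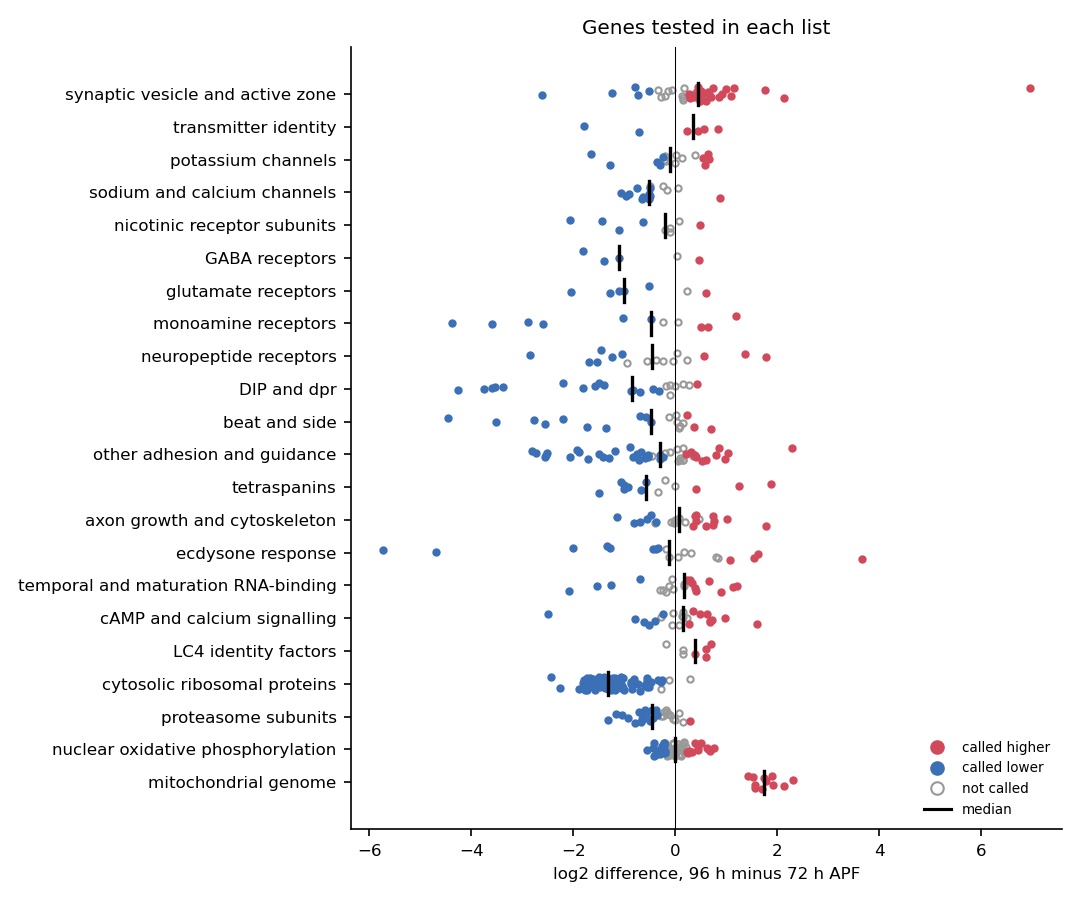
Log2 difference between 96 h and 72 h APF (horizontal axis) of every tested member of 22 gene lists (rows). Red marks members called higher, blue members called lower, open grey circles members not called, and the black bar the median of the members tested. Ribosomal protein genes lie to the left with a median of -1.33, and the listed transcripts of the mitochondrial genome to the right with a median of 1.73.

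Ribosomal protein genes fell almost without exception: of 84 tested of 92, 81 fell and none rose, with a median of -1.33 and 66 that fell 2-fold or more. Their summed level went from between 1009 and 1082 to between 426 and 517 UMIs per 10,000. RpL15 had 27.8, 28.8, 28.7 and 30.4 at 72 h and 13.7, 13.7, 17 and 15.8 at 96 h (-1.03 ± 0.10, adjusted p = 6.6e-07). Proteasome subunits fell as well, 20 of 32 tested, with 1 that rose and a median of -0.45. Prosalpha7 fell from 0.921 ± 0.0447 to 0.385 ± 0.0909 (-1.33 ± 0.12, adjusted p = 2.9e-07). Cells of 96 h also had fewer UMIs and genes, as given above, and what part this had in these counts was not tested.

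All 11 tested of 13 listed transcripts of the mitochondrial genome rose, each 2-fold or more. Their summed level was 33.9 to 41.7 at 72 h and 83.7 to 142 at 96 h. mt:CoI, a subunit of cytochrome c oxidase, had 8.15, 8.64, 7.14 and 7.09 at 72 h and 25.5, 30.2, 24.6 and 16.2 at 96 h (1.55 ± 0.16, adjusted p = 1.0e-05), and mt:ND6, of complex I, 0.546, 0.668, 0.524 and 0.604 at 72 h and 3.15, 3.48, 3.62 and 2.06 at 96 h (2.30 ± 0.18, adjusted p = 1.0e-06). The mitochondrial share per cell also rose, as given above. The 13 listed transcripts accounted for only part of that share at either stage, and what made up the rest was not tested. Nuclear genes of oxidative phosphorylation were split: of 64 tested of 86, 12 rose and 16 fell, and the median was -0.01. The count that fell was 8 to 10 without any 1 of the 72 h crosses or without DGRP-535 at 96 h, and scaling by total UMIs gave 22 that rose and 8 that fell. Among these, Cyt-c-p rose from 10.95 ± 0.968 to 15.04 ± 1.81 and ATPsynC fell from 21.8 ± 0.6904 to 17.5 ± 0.152.

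In the cytoskeleton and growth list, 25 of 29 were tested, of which 10 rose and 6 fell, and the summed level went from between 76.3 and 83.9 to between 130.3 and 148. The tubulin genes alphaTub84B (10.7, 11.3, 11.7 and 10.3 at 72 h and 14.8, 16.2, 14.3 and 16.6 at 96 h, 0.40 ± 0.08, adjusted p = 0.00053) and betaTub56D (9.95, 9.74, 9.76 and 8.36 at 72 h and 16.6, 17.1, 15.2 and 19.2 at 96 h, 0.76 ± 0.08, adjusted p = 2.0e-06) rose. Act5C, a cytoplasmic actin, had 1.02, 1.51, 1.42 and 1.39 at 72 h and 6.09, 6.503, 3.32 and 3.703 at 96 h (1.77 ± 0.22, adjusted p = 0.00011), higher at 96 h in the older crosses than in the younger ones, while Act42A fell from 0.582 ± 0.0857 to 0.282 ± 0.0419. Of RNA-binding and temporal factors, 21 of 24 were tested, of which 9 rose and 4 fell. shep rose, with 9.06, 7.41, 9.88 and 7.84 at 72 h and 28.3, 17.8, 16.8 and 21 at 96 h (1.20 ± 0.15, adjusted p = 2.7e-05), as did the temporal transcription factor chinmo from 4.24 ± 0.792 to 9.85 ± 0.806 and the ELAV-family gene fne from 12.1 ± 0.877 to 20.5 ± 2.65. Rbp9, of the same family, fell from 3.55 ± 0.511 to 0.893 ± 0.241 (-2.08 ± 0.15, adjusted p = 1.8e-07), and Imp from 0.637 ± 0.0786 to 0.226 ± 0.0953 (-1.54 ± 0.19, adjusted p = 9.3e-06). Syp was not called (0.16 ± 0.10, adjusted p = 0.18). Syp was called when 1 cross was left out (adjusted p = 0.034 without DGRP-799 at 72 h).

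Signalling genes changed in both directions, 9 higher and 6 lower of 23 tested of 28. Calmodulin (Cam), at 283, 289, 289 and 291 at 72 h and 281, 301, 299 and 299 at 96 h, was not called (-0.05 ± 0.07, adjusted p = 0.59). CaMKII rose from 10.6 ± 0.606 to 17.8 ± 1.18 (0.67 ± 0.09, adjusted p = 1.7e-05), the calcineurin subunit CanA-14F from 12.4 ± 0.569 to 25.9 ± 1.03 (0.98 ± 0.08, adjusted p = 5.1e-08) and the protein kinase A subunit Pka-R1 from 1.77 ± 0.204 to 5.69 ± 0.445 (1.6 ± 0.10, adjusted p = 6.9e-09). Ggamma30A, a G protein gamma subunit, fell, with 7.44, 6.405, 7.06 and 6.53 at 72 h and 1.18, 1.09, 1.34 and 1.54 at 96 h (-2.50 ± 0.11, adjusted p = 1.2e-10), while Ggamma1 rose from 10.5 ± 0.7299 to 17.9 ± 1.16 (0.67 ± 0.08, adjusted p = 2.4e-06). shakB, the innexin of the electrical synapses of the giant fibre pathway, was the single innexin tested of 8 and had 27.2, 25.8, 34.5 and 30.01 at 72 h and 11.5, 12.7, 9.42 and 9.597 at 96 h (-1.54 ± 0.11, adjusted p = 2.3e-08).

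Of a list of 11 factors that set the 3 types apart or are shared by them, 7 were tested, of which 4 rose and none was called lower. kn and lov mark LC4, while acj6 and fkh are found in the LPLC types as well: kn had 5.17, 5.03, 4.62 and 4.85 at 72 h and 8.696, 9.39, 6.286 and 7.33 at 96 h (0.60 ± 0.10, adjusted p = 8.5e-05), lov 1.15, 1.06, 1.18 and 1.12 at 72 h and 1.81, 1.98, 1.99 and 2.01 at 96 h (0.70 ± 0.09, adjusted p = 6.0e-06), acj6 rose from 4.58 ± 0.2497 to 6.36 ± 0.424 (0.38 ± 0.08, adjusted p = 0.00067) and fkh from 1.703 ± 0.0725 to 2.73 ± 0.255 (0.59 ± 0.09, adjusted p = 6.1e-05). Smaller lists gave mixed counts. Of clock genes, 8 of 11 were tested, of which 1 rose and 2 fell: Pdp1 rose, with 4.08, 3.85, 3.75 and 3.695 at 72 h and 12.4, 10.4, 10.2 and 11.9 at 96 h (1.46 ± 0.08, adjusted p = 1.5e-09), cwo and tim fell and per was not called. Of 11 activity-regulated genes tested of 13, 1 rose and 5 fell, with Mef2 rising from 0.355 ± 0.0412 to 0.946 ± 0.09304 (1.34 ± 0.12, adjusted p = 1.6e-07). CG13054 of that list was not called, and its 96 h crosses ran from 0.604 to 4.98, with the top value in DGRP-799 (log2 difference -1.15 ± 0.70, adjusted p = 0.22). CG13054 was called when 1 cross was left out (adjusted p = 0.0031 without DGRP-799 at 96 h). Of 17 heat shock and stress genes tested of 21, 3 rose and 7 fell; Hsp67Bc had 11.9, 13.03, 13.2 and 16.5 at 72 h and 2.11, 3.01, 2.39 and 2.82 at 96 h (-2.49 ± 0.13, adjusted p = 1.1e-09). Vacuolar ATPase subunits had 15 of 32 tested, of which 5 rose and 2 fell, with all differences within 2-fold. Of 8 genes tied to sex-linked expression, 1 fell (tra2) and 7 were not called, among them lncRNA:roX2 and lncRNA:roX1 (0.60 ± 0.33, adjusted p = 0.17). With the block by strain lncRNA:roX1 was called (adjusted p = 0.039).

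To ask where the change in LC4 differed from that of related neurons, the LC4 difference was tested against the mean of the LPLC1 and LPLC2 differences. Each of those types had 6 crosses at each stage from the same libraries. Their animals came from other split-GAL4 driver lines, and their strains included DGRP-320 and DGRP-730, which the LC4 crosses lacked. Of 6507 genes tested, 1664 were called (25.6%), 850 with the LC4 change more positive and 814 with it more negative. 249 and 334 of them differed by 2-fold or more. In that joint fit LC4 had 3096 called genes, LPLC1 3321 and LPLC2 3558. 2005 LC4 calls were called in the same direction in LPLC1 and 110 in the opposite one, and for LPLC2 the counts were 1889 and 235. The joint log2 differences of Hr4 were -4.69 in LC4, -5.26 in LPLC1 and -4.07 in LPLC2, a case in which the difference between types was not called (-0.02 ± 0.41). For Fas1 they were 2.29, 2.18 and 2.41 (-0.0051 ± 0.13, not called).

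Among called genes with a mean of at least 1 UMI per 10,000 at the higher LC4 stage, the 6 with the most positive difference were Sytalpha, CG6006, Hsp67Bc, Drep3, nAChRalpha5 and CG32683. Sytalpha rose in LPLC1 from 0.03101 to 1.57 and in LPLC2 from 0.879 to 3.101 (means of 6 crosses), so that the LC4 change was larger by 3.40 ± 0.40 (SE, adjusted p = 9.7e-08) on the log2 scale. Against LPLC1 alone the adjusted p was 0.071. Drep3 exceeded by 2.69 ± 0.28 (SE, adjusted p = 1.7e-08), CG6006 by 3.33 ± 0.63 (SE, adjusted p = 0.00025) and CG32683, at 0.928 ± 0.0838 to 5.37 ± 2.57 in LC4, by 2.47 ± 0.25 (SE, adjusted p = 1.8e-08). For nAChRalpha5 and Hsp67Bc the difference lay in the other types: nAChRalpha5 went from 36.2 to 10.3 in LPLC1 and from 36 to 5.38 in LPLC2, while it was not called in LC4 (2.52 ± 0.14 SE, adjusted p = 2.6e-16). Hsp67Bc fell in LC4 too, but by less (2.84 ± 0.36 SE, adjusted p = 7.9e-07).

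In the opposite direction, under the same limit on level, the most negative were CG16758, jeb, CG43795, side-III, beat-IIa and Df31. jeb went from 2.29 to 1.29 in LPLC1 and 3.11 to 2.13 in LPLC2, and its fall in LC4 was larger, a difference of -2.39 ± 0.41 (SE, adjusted p = 5.3e-05). CG16758 gave -2.82 ± 0.40 (SE, adjusted p = 1.8e-06) and Df31 -2.10 ± 0.59 (SE, adjusted p = 0.0094), the latter with an adjusted p of 0.056 with a block by type and strain and of 0.17 against LPLC1 alone. CG43795, which fell in LC4 from 2.07 ± 0.1103 to 0.265 ± 0.0495, gave -2.26 ± 0.30 (SE, adjusted p = 1.9e-07). The recognition genes side-III (1.08 ± 0.322 to 0.173 ± 0.0543 in LC4, -2.26 ± 0.32 SE, adjusted p = 3.5e-06) and beat-IIa (1.16 ± 0.317 to 0.204 ± 0.119 in LC4, -2.13 ± 0.25 SE, adjusted p = 9.7e-08) belonged here as well. nAChRalpha6 and Ggamma30A also fell more in LC4, with differences of -1.83 ± 0.21 (SE, adjusted p = 7.7e-08) and -1.93 ± 0.11 (SE, adjusted p = 7.3e-17).

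For 69 genes the 3 types disagreed in sign in the joint fit, whose LC4 calls are not all those of LC4 alone, with a call in LC4 in 1 direction and calls in both LPLC types in the other; 45 of them were higher at 96 h in LC4. They were picked out after their values were seen, and include genes already named. sdk fell in LPLC1 from 0.111 to 0.0252 and in LPLC2 from 1.31 to 0.512, whereas it rose in LC4 (2.45 ± 0.32 SE, adjusted p = 6.1e-07). Shab went from 13.04 to 9.14 and 13.2 to 8.61 in the LPLC types (1.33 ± 0.11 SE, adjusted p = 3.9e-12). betaTub56D fell from 9.04 to 3.48 and 9.51 to 6.33 there (1.91 ± 0.15 SE, adjusted p = 1.2e-11), and alphaTub84B from 10.5 to 5.15 and 14.2 to 9.36 (1.39 ± 0.13 SE, adjusted p = 1.9e-10). Tomosyn, which restrains vesicle fusion, rose in LC4, with 11.2, 11.7, 11.7 and 12.04 at 72 h and 26.6, 27.4, 28.03 and 27.4 at 96 h (1.14 ± 0.08, adjusted p = 1.5e-08), and fell from 9.56 to 8.56 in LPLC1 and 13.01 to 10.5 in LPLC2 (1.55 ± 0.11 SE, adjusted p = 2.4e-14). Nmdar2 (1.32 ± 0.12 SE, adjusted p = 6.2e-11), CG17716 (1.75 ± 0.15 SE, adjusted p = 2.2e-11) and fne (1.13 ± 0.14 SE, adjusted p = 9.2e-08) were of the same kind. Genes that fell in LC4 and rose in the others included the mitochondrial ribosomal protein genes mRpL48 (0.284 ± 0.0184 to 0.172 ± 0.0812 in LC4) and mRpL36, neither of which was called with cells thinned to 10000 UMIs. dpr10, called in LC4 alone but not with the spread of the 3 types pooled (adjusted p = 0.077), had log2 differences of -0.94 in LPLC1 and -1.73 in LPLC2 (1.76 ± 0.24 SE, adjusted p = 2.6e-06).

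For the listed transcripts of the mitochondrial genome the median log2 difference was 1.73 in LC4, 1.34 in LPLC1 and 0.54 in LPLC2. Of 13 differences between types, 10 were called. The share to set beside this count and the next 2 is the 25.6% of all genes tested between types. For ribosomal protein genes the medians were -1.33, -1.27 and -1.27, and 14 of 85 were called. In the synaptic vesicle and active zone list 19 of 41 were called, with medians of 0.44 in LC4, 0.28 in LPLC1 and 0.11 in LPLC2. For these 3 lists the LC4 medians come from the fit of LC4 alone, over 11, 84 and 40 members. Those of LPLC1 and LPLC2 come from the joint fit, over 13, 85 and 41 members, so the gene sets differ slightly. The LPLC1 crosses of 96 h included a sum of 14 cells, without which 1702 genes were called over all genes tested.

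**Figure D5:**
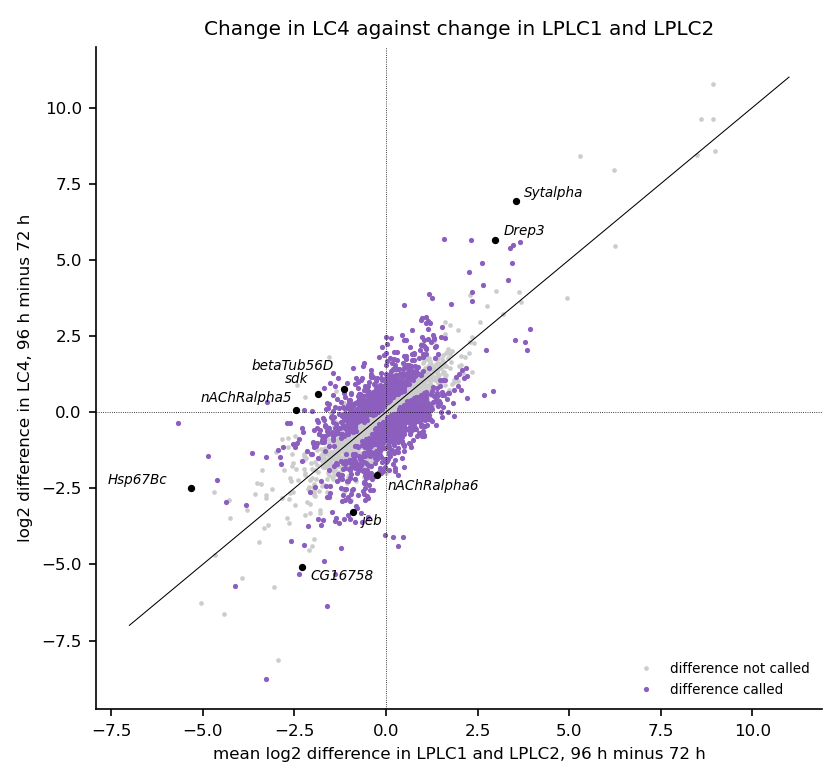
Log2 difference between 96 h and 72 h APF in LC4 (vertical axis) against the mean of the differences in LPLC1 and LPLC2 (horizontal axis), 1 point a gene for genes tested in both fits, with the line of equal change. Purple points are genes whose LC4 change was called different. Named genes above the line, such as Sytalpha, sdk and nAChRalpha5, have the more positive change in LC4.

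Between the 4 strains few genes differed beyond the spread, with stage as a term: 27 of 5605 were called (0.482%), and 337 had an unadjusted p under 0.05. Differences between the early pair (DGRP-399 and DGRP-535) and the late pair cannot be told apart from age, whereas both crosses of a pair came from the same collection window. The 6 with the highest F were FMRFaR, Abd-B, lovit, TotA, CG3678 and CG11317. FMRFaR, a neuropeptide receptor, had 0.04596, 0.2396, 0.265 and 0.217 at 72 h and 0.177, 0.604, 0.916 and 1.32 at 96 h, lowest in DGRP-399 at both stages. Abd-B was near absent in DGRP-535, with 0.184, 0.0127, 0.2498 and 0.166 at 72 h and 0.214, 0.00728, 0.337 and 0.229 at 96 h. lovit had 0.378, 0.423, 1.28 and 1.36 at 72 h and 0.111, 0.102, 0.2 and 0.229 at 96 h, higher in the younger crosses at both stages. CG3678 was lowest in DGRP-805, with 0.286, 0.275, 0.2596 and 0.0568 at 72 h and 0.149, 0.197, 0.158 and 0.0229 at 96 h. TotA, a stress-induced secreted peptide, had 0.0868, 0.0433, 0.328 and 0.422 at 72 h and 0.0929, 0.00728, 0.137 and 0.183 at 96 h. CG11317 had 3.304, 3.74, 2.68 and 1.91 at 72 h and 5.74, 6.539, 3.46 and 3.28 at 96 h. The count depended on single crosses: it was 0 without DGRP-535 at 72 h and 184 without DGRP-799 at 72 h.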

How the data were processed

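The 72 h and 96 h APF libraries were analysed, and the 48 h library was not analysed here. The authors aligned droplet 3' reads with Cell Ranger to the FlyBase 6.29 genome (dm6). They assigned barcodes to crosses by the single-nucleotide variants of the DGRP chromosomes. Types were named from known marker genes after clustering in Seurat 5.0.1. The deposited tables hold counts of UMIs, unnormalized, and the mitochondrial percent per barcode is a value the authors computed. The stated filter keeps 10000 to 50000 UMIs and up to 10% mitochondrial UMIs. Annotated cells outside it, among them cells with fewer UMIs, were in the files and were kept. The LC4 cells that met it numbered 61, 124, 130 and 225 at 72 h and 41, 55, 37 and 52 at 96 h. Annotated cells carried the singlet flag of the strain assignment, which cannot mark doublets within a strain, and no further doublet caller was run.

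UMIs of LC4 cells were summed per cross and tested with edgeR 4.0.16 in R 4.3.3 (filterByExpr, TMM, quasi-likelihood F test, Benjamini-Hochberg, threshold 0.05). The interaction used 32 sums and required at least 10 cells a sum. Levels are UMIs per 10000. Intervals and floors (3 UMIs) cover counting error only. Gene coordinates are those of the dm6 annotation BDGP6.54.115, which matched 17774 of 17824 genes. Scripts were tested on simulated data. Same-strain crosses of the stages deviated together only weakly (r of 0.112, 0.160, 0.0413 and 0.198, own strain highest in 4 of 4). The study counts each cross as an independent replicate, and the main fit held stage alone, without pairing. Since each number is 1 strain, the strain block was the paired fit. The alternatives were DESeq2 1.42.0 (size factors and tests), total scaling, no filter, cell filters, thinning to 10000 UMIs, single windows and crosses left out.

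Named genes were the 12 largest changes in each direction (at least 1 UMI per 10000 at the higher stage, no overlap), the 5 largest gains and losses of UMIs, list members by level or change, the 6 most extreme interactions each way (same limit on level), the 6 highest strain F values and genes the study names with its single-cell data. The comparison and the gene lists were chosen with earlier results of these data known, and 13 listed names had no match. A gene that the rule would name is not reported here.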

Additional observations from a re-analysis of the deposited data

Results flagged for a closer look

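In 23 of 304 groups of 4 crosses 1 cross stood apart from the other 3 by Dixon's ratio (over its 95% critical value), and chance marks about 1 in 20 groups. DGRP-799 at 96 h, the sum of 42 cells, was the cross apart in 6 of them. Values are UMIs per 10000. At 72 h DGRP-399 stood apart for ChT (1.501, others 1.305 to 1.33), Sap47 (23.1, others 20.4 to 20.7) and dpr13 (8.78, others 7.74 to 7.83). At 72 h DGRP-535 stood apart for Dh31-R (0.7901, others 1.05 to 1.08). At 72 h DGRP-799 stood apart for CG13054 (2.67, others 4.42 to 4.63) and Kr-h1 (0.004899, others 0 to 0). At 72 h DGRP-805 stood apart for CG3678 (0.0568, others 0.2596 to 0.286), betaTub56D (8.36, others 9.74 to 9.95) and chinmo (5.42, others 3.696 to 3.94). At 96 h DGRP-399 stood apart for CG17777 (13.9, others 5.77 to 6.71), Cam (281, others 299 to 301), Nrg (4.82, others 4.298 to 4.37) and lov (1.81, others 1.98 to 2.01). At 96 h DGRP-535 stood apart for Kr-h1 (1.35, others 1.49 to 1.51) and VAChT (7.51, others 8.29 to 8.43). At 96 h DGRP-799 stood apart for CG4882 (0.211, others 0.0801 to 0.0992), CaMKII (19.6, others 17.1 to 17.3), EcR (3.14, others 2.48 to 2.59), GluRIA (0.474, others 0.255 to 0.2901), Unc-89 (0.147, others 0.00929 to 0.0153) and acj6 (5.73, others 6.48 to 6.62). At 96 h DGRP-805 stood apart for Ace (15.5, others 19.2 to 19.9) and beat-Va (4.61, others 4.06 to 4.097). Kr-h1 at 72 h rests on 2 UMIs of 1 cross with the others at 0, where the ratio is fixed and tests nothing.

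The 23 differences between types given in the report passed the interaction test (edgeR, adjusted p under 0.05), as did those of other named genes. On the log2 scale the LC4 change was more positive for Sytalpha (3.40), CG6006 (3.33), Hsp67Bc (2.84), Drep3 (2.69), nAChRalpha5 (2.52), CG32683 (2.47), sdk (2.45), betaTub56D (1.91), dpr10 (1.76), CG17716 (1.75), Tomosyn (1.55), alphaTub84B (1.39), Shab (1.33), Nmdar2 (1.32) and fne (1.13). It was more negative for CG16758 (-2.82), jeb (-2.39), CG43795 (-2.26), side-III (-2.26), beat-IIa (-2.13), Df31 (-2.10), Ggamma30A (-1.93) and nAChRalpha6 (-1.83).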

How the results depend on the processing

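The count of 2920 genes between stages stayed within 1.5 times under every alternative run, from 2003 with cells thinned to 10000 UMIs (4021 genes tested) to 3342 with no filter on low counts (11440 tested), and between 2616 and 2991 with 1 cross left out. The block by strain gave 2855 genes between stages and 1598 between types, and among the genes named it changed the stage calls of SiaT, lncRNA:roX1, CG11317, CG3678 and TotA (lost for SiaT, gained for the others) and, among the 23 differences between types given above, the call of Df31. Scaling by total UMIs alone moved the median log2 difference of all genes to 0.094 and the share of calls that were higher from 48.6% to 57.1%. Of 72 list counts (genes that rose or fell in a list), 37 moved by over 1.5 times in at least 1 setting. Of nuclear oxidative phosphorylation genes, 2 (younger crosses alone) to 23 fell and 8 to 22 (total UMIs) rose. The count that rose in the synaptic list stayed between 21 and 29, the count that fell among DIPs and dprs between 14 and 19 and that among sodium and calcium channels between 10 and 13. Of the genes whose values are given, beat-Va, Cyt-c-p, FMRFaR, GABA-B-R2, mRpL48, Sema1a, shep, SiaT, side, side-VI, side-VII, trn and VAChT were not called in the older crosses alone (2 against 2), and beat-Va, bma, Dh31-R, EcR, trn and VAChT were not called in the younger ones. The 1664 genes that differed between types became 1096 with thinned cells, 1411 with only the 4 strains shared by the types, and 1422 to 1572 with 1 LC4 cross left out. The 27 genes that differed between strains became 167 with no filter on low counts, and 0 to 184 with 1 cross left out. Leaving out the 14-cell LPLC1 sum was chosen after seeing the data. The interaction changed sign for norpA (-0.028 against LPLC1 alone), Syt12 (0.017 against LPLC2 alone), GluRIB (-0.84 against LPLC2 alone) and dpr1 (-0.65 against LPLC2 alone), since only 1 of the 2 types was then compared. Over the alternatives, 77 genes of those followed lost their call between stages at least in 1 setting and 28 gained one, and the cause was not tested. Stage and library cannot be told apart, 4 crosses of 42 to 66 cells at 96 h limit low genes, and a sum cannot tell fewer expressing cells from less RNA in each.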
